A study of Mus musculus with 9 samples.

Results

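The genes described here are 10 components of the NF-kB pathway, 5 subunits of the transcription factor (Nfkb1, Nfkb2, Rel, Rela and Relb) and 5 genes that restrain it or report on its activity (Nfkbia, Nfkbib, Nfkbie, Tnfaip3 and Ier3). They were taken by name, with every probe set that the platform annotation gives them, and 9 of the 10 were found, with 13 probe sets of the 22690 on the array. Nfkb1 was not analysed here. RNA came from mouse regulatory T cells, lymphocytes that hold other immune cells in check, separated with magnets by the surface proteins CD4 and CD25. There were 9 Affymetrix arrays in 3 groups of 3, all labelled with the C57BL6 strain: wild type, and conditional Sirt1 knockouts by Cre recombinase under CD4 (CD4-cre) or under Foxp3 (Foxp3-cre). Sirt1 encodes a protein deacetylase. The CD4 promoter is active in T cells at large and in their thymic precursors, and the Foxp3 promoter in regulatory T cells. The age of the mice, the deleted part of Sirt1, and whether the wild type mice carried a Cre or a marked Sirt1 allele are not stated in the labels. The study calls the samples independent without naming animals, so the spread behind each p-value may be partly technical.

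NF-kB proteins act as dimers that are kept out of the nucleus by inhibitors of the I-kappa-B family. Signals from the T cell receptor, CD28 and receptors of the tumour necrosis factor family activate a kinase that marks the inhibitors for destruction, and the freed dimers bind kappa B sites in DNA. Among the genes they switch on are those of their own inhibitors and of some subunits, which makes Nfkbia, Nfkbie, Tnfaip3, Nfkb2 and Relb feedback genes as well as components. In regulatory T cells the subunit c-Rel, the product of Rel, is needed for Foxp3 to be switched on during development. The SIRT1 protein is known to remove acetyl groups from the RelA protein, a modification that arrays of RNA do not measure.

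Promoter sequences are shown because most of these genes are themselves regulated through kappa B sites. The consensus searched has 10 bases: GGG, then A or G, any base, A or T, C or T, C or T, and CC. It was read on both strands in RefSeq windows of 300 bases on GRCm38.p6, from 250 before to 50 after each annotated transcript start. Windows were at hand for 8 of the 10 genes, and 6 of the 8 held at least 1 match in at least 1 window: Nfkb2, Rel, Nfkbia, Nfkbie, Tnfaip3 and Ier3. Of all 32851 RefSeq windows, 4.51% held a match, as did 6.43% of the 6113 tested genes with a window. The Rela and Nfkbib windows had no match, which says only that these letters are not in them. The 250 bases before the start follow for Nfkbia, the main feedback inhibitor, for Nfkb2 and Rel, for Ier3, which had the largest difference below, and for Tnfaip3, which did not follow the others. They run 5′ to 3′ along the gene, with the matches in capitals.
Nfkbia, chr12:55492648-55492897, minus strand: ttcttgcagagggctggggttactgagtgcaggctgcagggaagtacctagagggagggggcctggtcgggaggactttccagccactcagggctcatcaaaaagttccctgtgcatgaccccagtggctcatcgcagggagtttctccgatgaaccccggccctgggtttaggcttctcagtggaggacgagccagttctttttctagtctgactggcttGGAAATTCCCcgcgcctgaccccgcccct
Nfkb2, chr19:46304487-46304736, plus strand: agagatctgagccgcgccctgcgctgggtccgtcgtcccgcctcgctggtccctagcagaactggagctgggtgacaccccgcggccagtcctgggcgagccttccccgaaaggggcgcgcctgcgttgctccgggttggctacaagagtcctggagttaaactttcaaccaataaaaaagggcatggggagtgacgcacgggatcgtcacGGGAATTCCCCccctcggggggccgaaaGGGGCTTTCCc
Rel, chr11:23770970-23771219, minus strand: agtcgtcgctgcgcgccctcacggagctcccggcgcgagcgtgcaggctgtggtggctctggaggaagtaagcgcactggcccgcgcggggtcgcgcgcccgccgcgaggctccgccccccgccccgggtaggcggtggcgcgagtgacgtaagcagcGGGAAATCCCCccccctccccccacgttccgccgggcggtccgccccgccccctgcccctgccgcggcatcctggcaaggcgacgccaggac
Ier3, chr17:35821463-35821712, plus strand: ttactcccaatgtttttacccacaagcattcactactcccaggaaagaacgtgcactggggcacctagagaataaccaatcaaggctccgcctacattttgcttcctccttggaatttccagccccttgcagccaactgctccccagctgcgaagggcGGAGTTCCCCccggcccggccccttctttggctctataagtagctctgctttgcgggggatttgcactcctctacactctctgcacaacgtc
Tnfaip3, chr10:19015411-19015660, minus strand: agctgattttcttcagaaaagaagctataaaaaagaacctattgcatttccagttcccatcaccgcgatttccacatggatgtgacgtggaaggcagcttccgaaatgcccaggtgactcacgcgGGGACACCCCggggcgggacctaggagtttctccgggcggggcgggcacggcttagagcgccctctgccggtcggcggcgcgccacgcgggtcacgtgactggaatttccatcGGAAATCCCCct
The Nfkbia match begins 29 bases before the start and lies on the antisense strand. Nfkb2 held 3 matches, of which GGGAATTCCC and GGAATTCCCC overlap by all but 1 base, and Rel held 2, GGGAAATCCC and GGAAATCCCC, that overlap in the same way. Tnfaip3 had 2 matches, beginning 125 and 12 bases before the start, and the Ier3 match begins 92 bases before it. Nfkbie, not printed, held GGGGGATTCC beginning 106 bases before its start. Nfkb2 has 2 further annotated starts, both with matches, whose windows overlap and share the match GGGACTTTCC, and the second start of Tnfaip3 had none. A match is a description of the sequence and does not show binding.

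**Figure D1:**
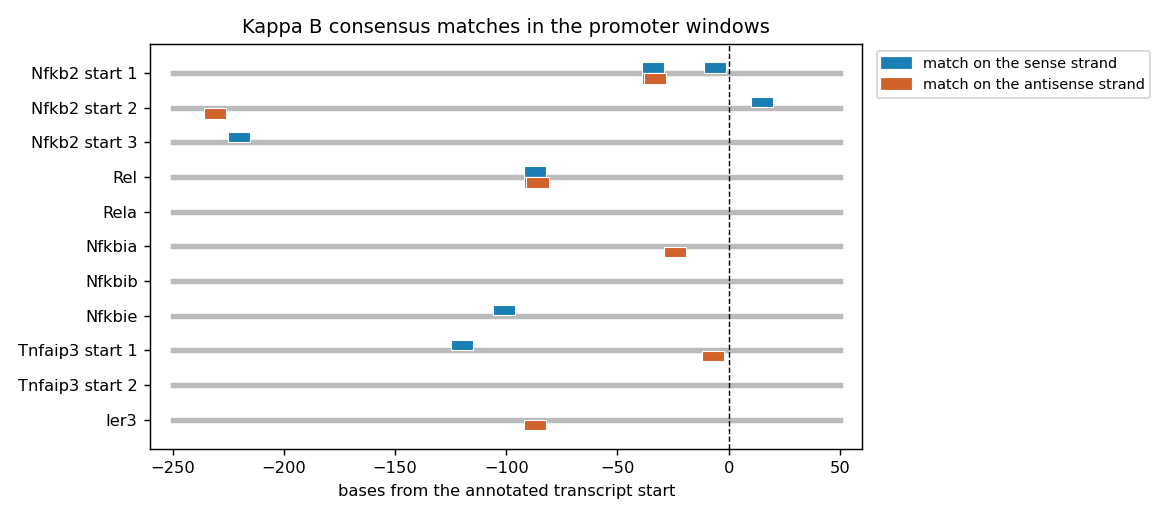
Kappa B consensus matches in the 300-base promoter windows of 8 NF-kB genes; the x axis gives bases from the annotated transcript start (dashed line), each grey bar is 1 window, and boxes mark 10-base matches on the sense strand (upper, blue) or antisense strand (lower, orange). Windows of Rela, Nfkbib and the second Tnfaip3 start hold none.

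The values are log2 signals made with RMA by the submitters, on which 1 unit stands for a 2-fold difference, and signals of different probe sets were not compared with each other. A gene with several probe sets was represented by the set with the highest mean. Wild type replicate 2 stood apart: over all probe sets it correlated at 0.982 to 0.987 with the other 8, which correlated at 0.992 or more among themselves, and its beta-actin 5′ minus 3′ signal, a sign of RNA integrity, was -1.53 against -0.68 to -0.45. Sirt1, with 1 probe set, did not separate the groups on all 9 arrays, with wild type arrays at 7.91, 6.77 and 7.90, CD4-cre from 7.59 to 7.69 and Foxp3-cre from 7.47 to 7.66. Its changes were 0.10 in CD4-cre and 0.03 in Foxp3-cre, and without wild type replicate 2 they were -0.28 (limma adjusted p = 0.0730) and -0.35 (adjusted p = 0.0301), with both remaining wild type arrays above all 6 knockout arrays. Whether the probe set lies in the deleted part is not known here. Foxp3 read 9.16 to 9.68 in wild type, 9.62 to 9.69 in CD4-cre and 2.67 to 3.38 in Foxp3-cre, under the testing threshold of 4.979. In that group its probe set thus did not detect the defining transcript of regulatory T cells. Whether the set can read the Foxp3 transcript of Foxp3-cre mice is not known here. The Foxp3 difference between the knockouts was -6.70 (limma adjusted p = 1.48e-07). Of 8 T cell markers 5 were tested and 0 passed limma in any comparison (at an unadjusted p under 0.05, 1 was lower in CD4-cre and 0 differed otherwise), with means of 10.56 to 10.63 in wild type, 10.50 to 10.56 in CD4-cre and 10.50 to 10.59 in Foxp3-cre. Of 10 neutrophil markers 6 rose in Foxp3-cre against wild type, where 1.69% of all tested genes rose. S100a8 and S100a9 stood at 0.84 and 1.16 there without passing. Csf3r and Cxcr2 did not follow, at -0.33 and 0.05 in Foxp3-cre and -1.53 and -0.38 in CD4-cre. The neutrophil list mean was 7.78 to 8.75 in wild type, 8.23 to 9.08 in CD4-cre and 9.16 to 10.14 in Foxp3-cre. Of 6 tested monocyte or macrophage markers 1 rose in Foxp3-cre against wild type, where 1.69% of all tested genes rose. At an unadjusted limma p under 0.05, 5 of the 6 were higher there, against 10.5% of all tested genes, and 0 in CD4-cre. Their list means were 6.93 to 7.44 in wild type, 6.79 to 8.07 in CD4-cre and 7.74 to 9.21 in Foxp3-cre. Adgre1, Cd14, Fcgr1 and Itgam were below the threshold. B cell markers had list means of 7.03 to 7.80, 7.81 to 7.91 and 7.18 to 8.71, with 0 of 5 changed in limma (2 higher at an unadjusted p under 0.05) and Pax5 and Ebf1 below the signal threshold for testing. NF-kB genes are expressed in all these cell types. The part of other cells in the results below was not tested, and in bulk RNA fewer cells of a type cannot be told apart from less RNA per cell.

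No NF-kB gene passed the adjusted threshold when the 3 groups were compared in 1 fit. By limma, 0 of the 9 measured genes changed in CD4-cre against wild type, where 0.659% of all 7436 tested genes did, and 0 of 9 changed in Foxp3-cre against wild type, where 3.36% did. Between the knockouts the counts were 0 of 9 against 0.0134% of all genes, which is Foxp3 alone, and for the mean of both knockouts against wild type 0 of 9 against 2.26%. Counts of 0 of 9 are near these shares and do not show that the genes were unchanged. At an unadjusted p under 0.05, 1 gene (Rel) was higher in CD4-cre, where 7.38% of all genes were, and 1 (Ier3) was lower in Foxp3-cre, where 10.8% were. Between the knockouts 4 (Rela, Relb, Nfkbia and Ier3) were lower, against 6.16%, and for both knockouts 1 (Ier3), against 9.52%. An ordinary linear model in place of limma's moderated one also called 0 of 9 in each, and so did the fit of all 22626 probe sets, with 0 of 13 sets in each, where 0.27%, 1.11%, 0.00442% and 0.796% of all sets passed. The signals of 7 of the 9 genes, Nfkb2, Rel, Rela, Relb, Nfkbia, Nfkbie and Ier3, were lower on every Foxp3-cre array than on every CD4-cre array, as were those of 18.8% of all tested genes. Of the 9, 8 had a difference below 0, as did 54.7% of all tested genes. The median difference of the 9 genes was -0.20, against -0.02 over all tested genes. CD4-cre arrays were also the most alike, with a median SD over all tested genes of 0.06 against 0.09 in Foxp3-cre and 0.18 in wild type.

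**Figure D2:**
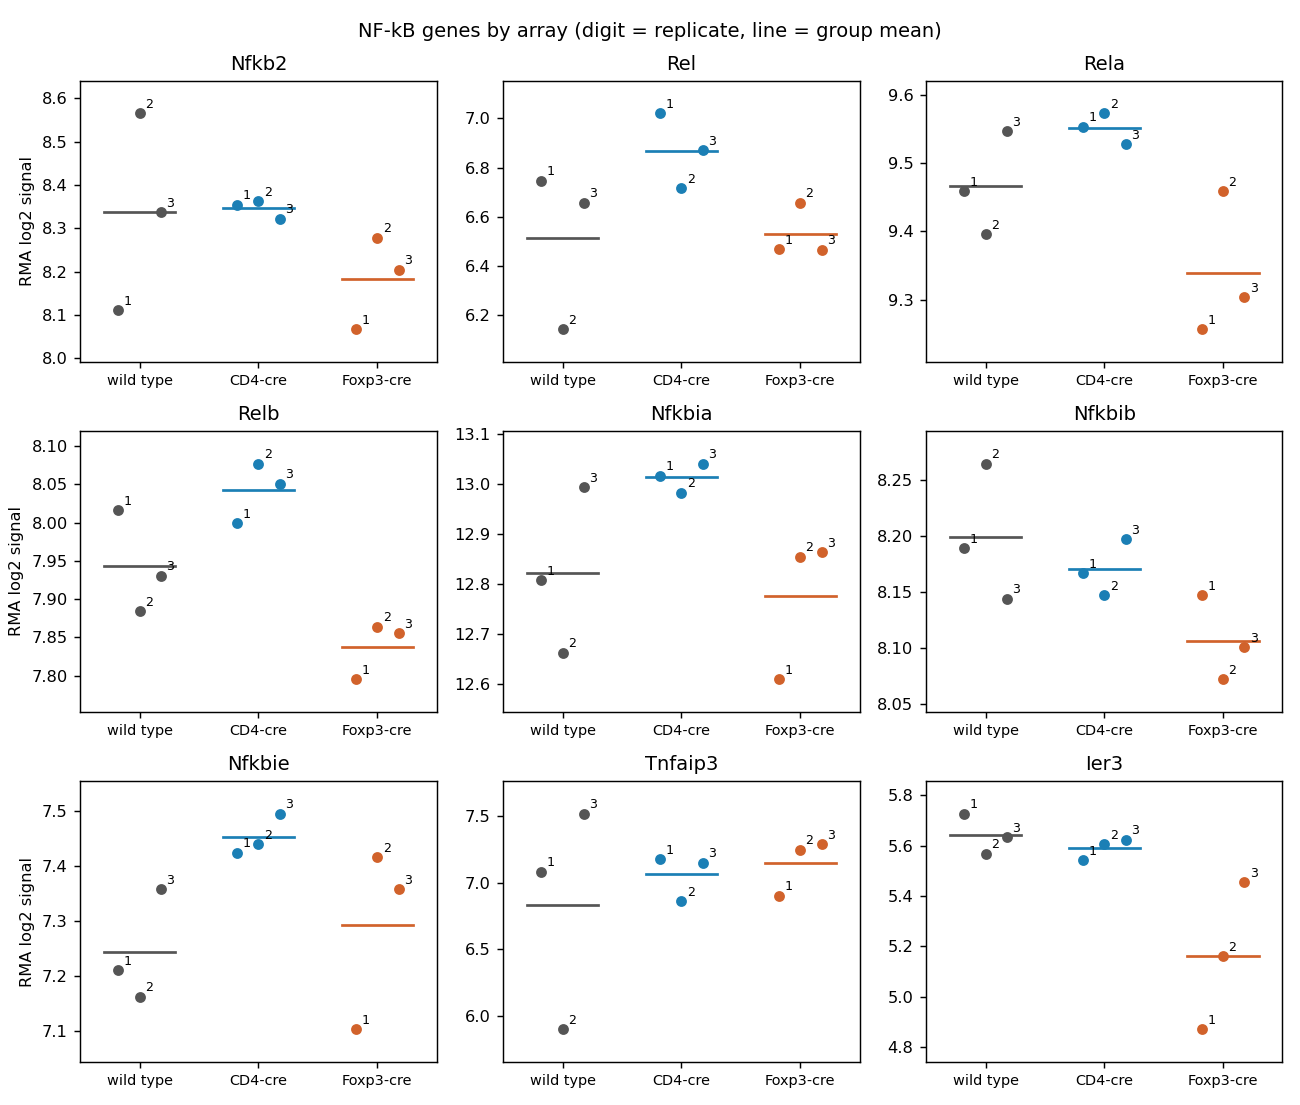
RMA log2 signal of the 9 measured NF-kB genes on each array, 1 panel per gene with its own y axis; points are arrays, digits are replicate numbers and lines are group means. CD4-cre points lie close together, and in 7 panels all 3 lie above the 3 Foxp3-cre points.

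Among the subunits, Rel, which encodes c-Rel, was the most variable. Its log2 signals were 6.75, 6.14 and 6.66 on the wild type arrays, 7.02, 6.71 and 6.87 with CD4-cre, and 6.47, 6.66 and 6.47 with Foxp3-cre. Wild type replicate 2 was the lowest of the 9 arrays, and CD4-cre and wild type overlapped only at 6.71 and 6.75. CD4-cre differed from wild type by 0.35 (SE 0.16, limma adjusted p = 0.350), Foxp3-cre by 0.02 (SE 0.16, adjusted p = 0.963), and without wild type replicate 2 the values were 0.17 and -0.17. Between the knockouts Rel stood at -0.34 in Foxp3-cre (SE 0.16, adjusted p = 0.457), with no overlap of the arrays. That SE pools the spread of all groups, and without wild type replicate 2 it was 0.09 (limma adjusted p = 0.109).

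Rela encodes RelA, or p65, the main activating subunit of the canonical pathway. It read 9.46, 9.40 and 9.55 on the wild type arrays, 9.55, 9.57 and 9.53 with CD4-cre, and 9.26, 9.46 and 9.30 with Foxp3-cre. Both knockouts overlapped wild type, while Foxp3-cre lay below CD4-cre on all arrays. The changes were 0.08 (SE 0.08, limma adjusted p = 0.648) and -0.13 (SE 0.08, adjusted p = 0.382), or 0.05 and -0.16 without wild type replicate 2, and the difference between knockouts was -0.21 (SE 0.08, adjusted p = 0.359).

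Relb, the subunit that pairs with p52 in the alternative pathway, had the narrowest spread of the subunits within Foxp3-cre. Its signals were 8.02, 7.88 and 7.93 on the wild type arrays, 7.999, 8.08 and 8.05 with CD4-cre, and 7.80, 7.86 and 7.86 with Foxp3-cre. All 3 Foxp3-cre arrays lay below all wild type and all CD4-cre arrays; against wild type this held for Relb and Ier3 of the 9 and for 12.2% of all tested genes. Foxp3-cre differed by -0.11 from wild type (SE 0.07, limma adjusted p = 0.408), by -0.20 from CD4-cre (SE 0.07, adjusted p = 0.314), and CD4-cre stood at 0.10 (adjusted p = 0.547) against wild type. With array weights, lowest for wild type replicate 2 and also low for wild type replicate 1 and Foxp3-cre replicate 1, the difference between knockouts was -0.19 and passed (limma adjusted p = 0.0337), in a fit that called 812 genes.

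Nfkb2 encodes p100, which is cut to the subunit p52 and otherwise acts as an inhibitor. Its brighter set, 1425902_a_at, read 8.11, 8.57 and 8.34 on the wild type arrays, 8.35, 8.36 and 8.32 with CD4-cre, and 8.07, 8.28 and 8.20 with Foxp3-cre. Wild type spanned both knockouts, from near the lowest Foxp3-cre value to above every CD4-cre value. CD4-cre stood at 0.01 from wild type (SE 0.11, limma adjusted p = 0.980), Foxp3-cre at -0.15 (SE 0.11, adjusted p = 0.446), and without wild type replicate 2 they were 0.12 and -0.04. The second set, 1429128_x_at, whose suffix marks probes that may also bind other transcripts, read 8.69 on wild type replicate 2, while replicates 1 and 3 read 7.41 and 7.83. In it the knockouts overlapped, at 7.79 to 7.98 in CD4-cre and 7.39 to 7.80 in Foxp3-cre, a difference of -0.31 (limma adjusted p = 0.795 over all probe sets).

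Among the inhibitors, Nfkbia encodes I-kappa-B alpha, the fast feedback inhibitor that NF-kB induces and then is held by. The set 1420088_at read 12.81, 12.66 and 12.99 on the wild type arrays, 13.02, 12.98 and 13.04 with CD4-cre, and 12.61, 12.85 and 12.86 with Foxp3-cre. Foxp3-cre lay within or just below the wild type range and CD4-cre near or above its top. Against wild type CD4-cre stood at 0.19 (SE 0.10, limma adjusted p = 0.434), Foxp3-cre at -0.05 (SE 0.10, adjusted p = 0.820), or 0.11 and -0.12 without wild type replicate 2, with -0.24 (SE 0.10, adjusted p = 0.437) between the knockouts.

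The other 3 Nfkbia sets gave the same sign between the knockouts. On the CD4-cre arrays the set 1448306_at read 11.87, 11.82 and 11.80, and on the Foxp3-cre arrays 11.14, 11.63 and 11.60, a difference of -0.38 (limma adjusted p = 0.429 over all probe sets). For 1449731_s_at the difference was -0.29 (adjusted p = 0.626), also without overlap, and for 1420089_at it was -0.22 (adjusted p = 0.728), with Foxp3-cre replicate 2 at 9.72 above CD4-cre replicate 2 at 9.64. Wild type replicate 2 was the lowest wild type array in 1449731_s_at, at 11.38, and the highest in 1420089_at, at 9.91, so the sets of this gene ranked the wild type arrays differently. Over the 13 probe sets of the NF-kB genes, 9 lay lower on every Foxp3-cre array than on every CD4-cre array, as did 13.9% of all probe sets. The 4 sets of Nfkbia measure 1 gene and are not independent.

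**Figure D3:**
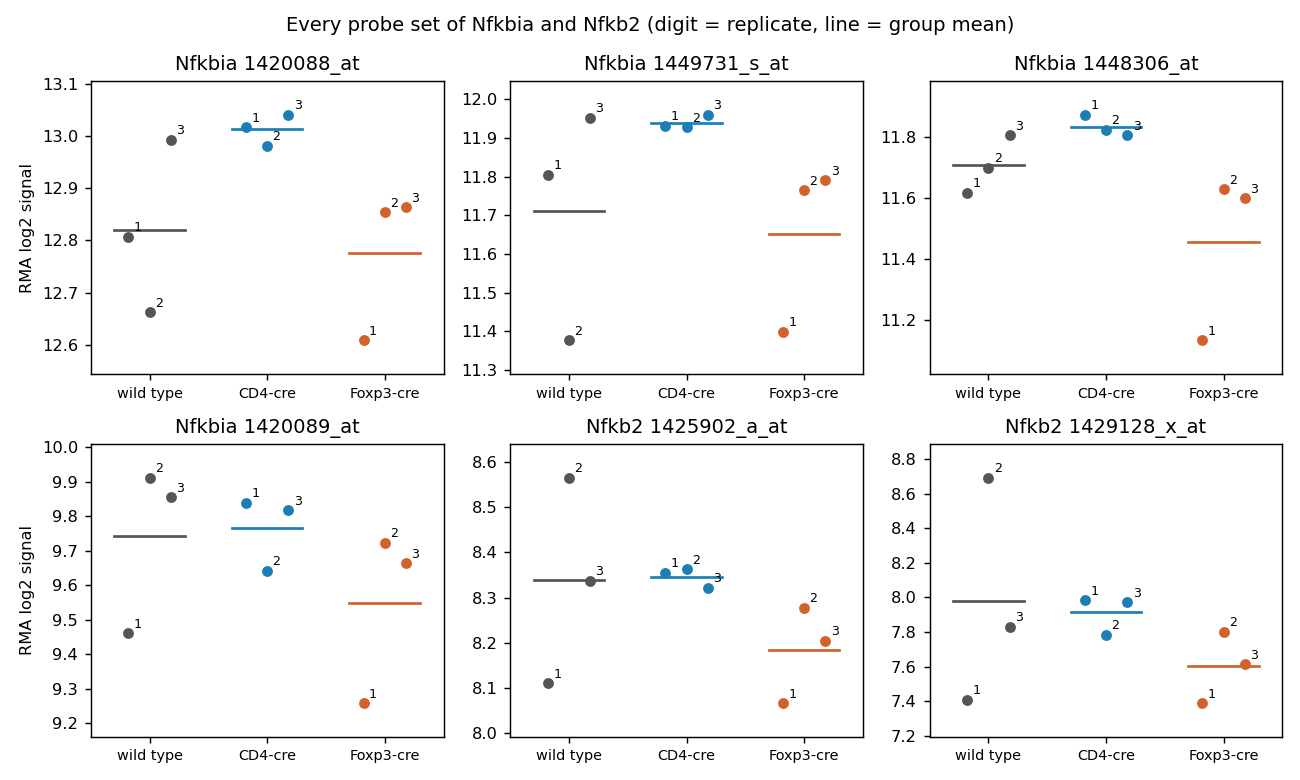
RMA log2 signal of the 4 Nfkbia and 2 Nfkb2 probe sets on each array, 1 panel per set with its own y axis; points are arrays, digits are replicate numbers and lines are group means. Foxp3-cre replicate 1 is the lowest Foxp3-cre point in each panel, and wild type replicate 2 is the lowest wild type point in 2 panels and the highest in 3.

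Nfkbie, for the inhibitor I-kappa-B epsilon, read 7.21, 7.16 and 7.36 on the wild type arrays, 7.42, 7.44 and 7.49 with CD4-cre, and 7.10, 7.41 and 7.36 with Foxp3-cre. It was the 1 gene of the 9 whose CD4-cre arrays all lay above wild type, which held for 11.9% of all tested genes, and its change there was 0.21 (SE 0.10, limma adjusted p = 0.371). In Foxp3-cre it stood at 0.05 (SE 0.10, adjusted p = 0.791) against wild type, or 0.01 without wild type replicate 2, and between the knockouts at -0.16 (SE 0.10, adjusted p = 0.592).

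Nfkbib, for I-kappa-B beta, which is not a fast feedback gene, was the steadiest of the 9. It read 8.19, 8.26 and 8.14 on the wild type arrays, 8.17, 8.15 and 8.20 with CD4-cre, and 8.15, 8.07 and 8.10 with Foxp3-cre. The groups overlapped in each comparison, and the differences from wild type, -0.03 for CD4-cre and -0.09 for Foxp3-cre, had 95% intervals of -0.18 to 0.13 and -0.25 to 0.06. Without wild type replicate 2 they were 0.00 and -0.06.

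Tnfaip3 encodes A20, an enzyme that edits ubiquitin chains and switches the pathway off. Its signals were 7.08, 5.90 and 7.52 on the wild type arrays, 7.18, 6.86 and 7.15 with CD4-cre, and 6.90, 7.25 and 7.29 with Foxp3-cre. Wild type replicate 2 was the lowest array by far, and the other 8 arrays overlapped between groups. The changes of 0.23 (SE 0.34, limma adjusted p = 0.777) and 0.31 (SE 0.34, adjusted p = 0.60) became -0.24 and -0.15 without that array. Between the knockouts Tnfaip3 stood at 0.08 (SE 0.34, adjusted p = 0.972), the 1 gene of the 9 that was not lower in Foxp3-cre, with a 95% interval of -0.68 to 0.84. The SE and interval pool the spread of all groups, and without wild type replicate 2 the SE was 0.15 (limma adjusted p = 0.775).

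Ier3, a stress and survival gene that NF-kB induces early, showed the largest difference. It read 5.73, 5.57 and 5.63 on the wild type arrays, 5.54, 5.60 and 5.62 with CD4-cre, and 4.87, 5.16 and 5.45 with Foxp3-cre. Each Foxp3-cre array lay below each array of the other groups, while wild type and CD4-cre overlapped. The change in Foxp3-cre against wild type was -0.48 (SE 0.13), or 0.716-fold, with limma adjusted p = 0.0824, and the adjusted p over the alternatives ranged from 0.0277 to 0.230. It passed with array weights (-0.40, adjusted p = 0.0277) and without Foxp3-cre replicate 3 (-0.63, adjusted p = 0.0438), the array closest to wild type. Between the knockouts the difference was -0.43 (SE 0.13, adjusted p = 0.269), and -0.34 with array weights (adjusted p = 0.0419) or -0.28 without Foxp3-cre replicate 1. In CD4-cre Ier3 stood at -0.05 (SE 0.13, adjusted p = 0.871). Foxp3-cre replicate 1 was under 4.979, the mean signal a gene needed to be tested.

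**Figure D4:**
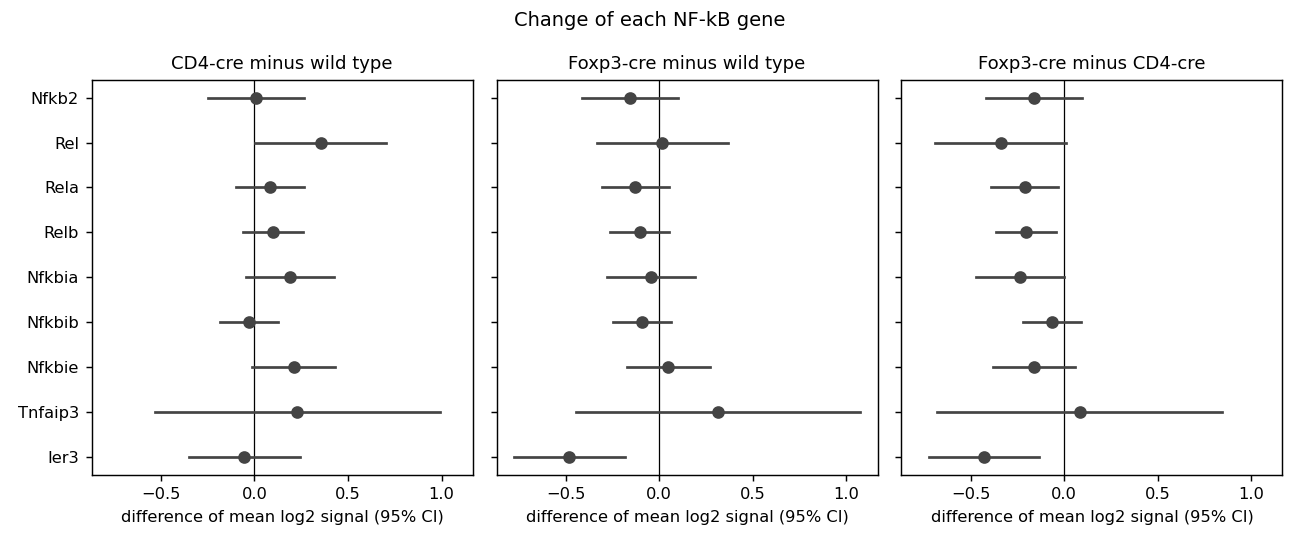
Difference of mean log2 signal for the 9 measured NF-kB genes in 3 comparisons; points are limma estimates and bars their 95% confidence intervals, not adjusted for the number of genes. The interval of Rel in CD4-cre lies just above 0, those below 0 are those of Ier3 against wild type, and of Rela, Relb, Nfkbia and Ier3 between the knockouts, and no gene passed the adjusted threshold.

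Within Foxp3-cre, replicate 1 was lowest of all 9 arrays for Nfkb2, Rela, Relb, Nfkbia, Nfkbie and Ier3. That array had the lowest list means of its group for neutrophil (9.16), monocyte or macrophage (7.74) and B cell (7.18) markers. Replicate 3, with the highest of these means (10.14, 9.21 and 8.71), was the highest of the group for Nfkbia, Tnfaip3 and Ier3, while replicate 2 was highest for Nfkb2, Rel, Rela, Relb and Nfkbie and replicate 1 for Nfkbib. The mean over the 9 genes was 7.91, 8.11 and 8.10 on Foxp3-cre replicates 1, 2 and 3, against 8.20 to 8.25 in CD4-cre and 7.95 to 8.24 in wild type. Without Foxp3-cre replicate 1 or any other single array, 7 or 8 of the 9 genes were lower on all Foxp3-cre than on all CD4-cre arrays. Leaving out an array cannot lower this count, so the range is no check of it.

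Patterns close to those of 3 members were found by Pearson's r over the 9 arrays among tested genes, as a description across arrays that share their groups and the outlying wild type array. For Nfkbia the nearest were Prr14 (r = 0.980), Nrros (0.963) and Phlpp1 (0.963), and without wild type replicate 2 they were at 0.987, 0.955 and 0.956. For Rel they were Klhl22 (0.963), Emc6 (0.963) and Trim33 (0.962), at 0.947, 0.944 and 0.921 without that array. For Ier3 they were Pcmtd1 (0.953), Pld3 (0.919) and Ier2 (0.912), the last an immediate early gene, at 0.971, 0.925 and 0.911. Among the 9 measured members the pair Nfkbia and Nfkbie had the highest correlation, r = 0.922 over the 9 arrays and 0.925 after removal of the group means.

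The rest of the pathway was read in 4 lists. Of 17 tested kinases and adaptors, which carry the signal from receptors to the inhibitors, 2 fell in Foxp3-cre against wild type, where 1.67% of all tested genes fell, and the list median was -0.08 against 0.01 over all genes. Traf1, an adaptor of tumour necrosis factor receptors and itself an NF-kB target, read 8.45, 8.64 and 8.62 in wild type, 8.30 on each CD4-cre array, and 7.90, 8.06 and 7.89 in Foxp3-cre. The groups stepped down without overlap, with CD4-cre at -0.27 (SE 0.08, limma adjusted p = 0.197), Foxp3-cre at -0.62 (SE 0.08, adjusted p = 0.00832). Prkcq, the kinase that links the T cell receptor to NF-kB, read 10.37, 10.34 and 10.44 in wild type, 10.15 on each CD4-cre array, and 9.96, 9.99 and 9.88 in Foxp3-cre. It fell by 0.44 in Foxp3-cre (SE 0.07, adjusted p = 0.0159) and stood at -0.23 in CD4-cre (adjusted p = 0.195), and without wild type replicate 3 or Foxp3-cre replicate 3 it no longer passed (adjusted p = 0.0515 and 0.0666). The CD4-cre arrays had an SD of 0 for Prkcq and 0.001 for Traf1, which narrows the pooled spread behind the SE of both genes. Irak1, a kinase of interleukin-1 and Toll-like receptor signalling, stood at 0.30 in CD4-cre (adjusted p = 0.279) and at 0.17 without wild type replicate 2, and its other sets stood at 0.19, -0.23 and -0.30. Traf2 stood at -0.36 between the knockouts (SE 0.12, adjusted p = 0.301). In CD4-cre 0 of 17 passed in limma. At an unadjusted limma p under 0.05, 1 was higher and 4 were lower there, against 7.38% and 6.7% of all tested genes. In Foxp3-cre 1 was higher and 7 were lower at that level, against 10.5% and 10.8%.

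Of 13 tested receptors that feed the pathway, 2 fell in Foxp3-cre and 1 in CD4-cre, where 1.67% and 0.43% of all tested genes fell. At an unadjusted limma p under 0.05, 1 was higher and 3 were lower in CD4-cre, against 7.38% and 6.7% of all tested genes. In Foxp3-cre 1 was higher and 2 were lower at that level, against 10.5% and 10.8%. The higher one was Tnfrsf4 in both, at 0.37 in CD4-cre (limma adjusted p = 0.120) and 0.28 in Foxp3-cre (adjusted p = 0.117). Tnfrsf9, the costimulatory receptor 4-1BB, fell by 0.54 in Foxp3-cre (SE 0.08, limma adjusted p = 0.0107), from 8.89, 8.89 and 8.81 to 8.42, 8.31 and 8.24, and a second set above the threshold stood at -0.23. Its fall of 0.45 in CD4-cre (SE 0.08, adjusted p = 0.0382) lost the threshold when any of 7 arrays was left out, with adjusted p up to 0.184, and was 0.15 with the mean of all its probe sets (adjusted p = 0.395). Tnfrsf1a, the main receptor for tumour necrosis factor, fell by 0.55 in Foxp3-cre (SE 0.08, adjusted p = 0.0129), from 8.18, 8.17 and 8.33 to 7.59, 7.67 and 7.77, and stood at -0.30 in CD4-cre. All its Foxp3-cre arrays lay below all others. Between the knockouts Cd27 and Tnfrsf25, further costimulatory receptors, stood at -0.28 and -0.26 (adjusted p = 0.486 and 0.443). With only the 2 groups compared in the fit, Traf1, Prkcq, Tnfrsf9 and Tnfrsf1a were at adjusted p from 0.0762 to 0.104 in Foxp3-cre.

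Of 24 other tested NF-kB targets, 1 rose and 1 fell in Foxp3-cre, where 1.69% of all tested genes rose and 1.67% fell. Ebi3, a subunit of the cytokine IL-35, rose by 0.58 (SE 0.11, limma adjusted p = 0.0290), from 7.37, 7.78 and 7.40 to 8.12, 8.01 and 8.16. Csf2, the cytokine GM-CSF, fell by 0.52 (SE 0.11, adjusted p = 0.0450), from 5.37, 5.05 and 5.36 to 4.85, 4.54 and 4.83, where the Foxp3-cre arrays are under the testing threshold. Neither call was firm: leaving out 1 of 7 arrays for Ebi3 and 1 of 8 for Csf2 moved the adjusted p above 0.05, up to 0.103 and 0.118. In CD4-cre 0 of 24 passed in limma, with the chemokines Ccl5 at -0.73 (adjusted p = 0.162) and Cxcl10 at 0.68 (adjusted p = 0.197). At an unadjusted limma p under 0.05, 4 were higher and 1 was lower there, against 7.38% and 6.7% of all tested genes. In Foxp3-cre 5 were higher and 9 were lower at that level, against 10.5% and 10.8%. Between the knockouts Vcam1, an adhesion molecule of endothelium and some macrophages, stood at 1.75 (SE 0.60, adjusted p = 0.308), and its dimmer sets stood at 0.66 and 0.15. Its CD4-cre arrays read 5.06, 5.04 and 6.82, the last above Foxp3-cre replicate 1, so the knockouts overlapped. Its Foxp3-cre arrays read 6.23, 7.63 and 8.31, beside monocyte or macrophage list means of 7.74, 8.51 and 9.21, and the part of such cells was not tested. Marcksl1 stood at 0.60 (SE 0.12, adjusted p = 0.178).

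This list moved most when wild type replicate 2 was left out. Then 8 of the 24 targets fell and 2 rose in Foxp3-cre, where 4.94% of all tested genes fell and 2.69% rose. The 8 were the chemokines Ccl3 (-1.12) and Ccl4 (-0.73), the cytokines Csf2 (-0.62), Tnf (-0.33) and Ltb (-0.29), the adhesion molecule Icam1 (-0.29), and the transcription factors Irf1 (-0.36) and Junb (-0.61), each named for its call in this fit after its values were seen. NK cells also make several of these, and of the NK cell or CD8 T cell markers 0 of 5 tested passed in limma with all arrays (2 lower in CD4-cre and 1 in Foxp3-cre at an unadjusted p under 0.05). Their list means were 6.26 to 6.38 in wild type, 5.79 to 6.38 for CD4-cre and 5.64 to 6.31 for Foxp3-cre. Of these markers Klra8 differed from wild type by -1.55 for CD4-cre and by -1.92 for Foxp3-cre without passing, and Ncr1 by -0.33 and -0.22. The others did not follow in the same way, with Cd8a at 0.01 and 0.28, Cd8b1 at 0.14 and 0.45, and Eomes at 0.15 and -0.19. The part of these cells in the result was not tested. The risen targets were Ebi3 (0.71) and Marcksl1 (0.53). Of the other lists Traf5 and Cd27 also fell there (-0.28 and -0.42), and Tnfrsf4 rose (0.34). In CD4-cre Ebi3 (0.46, limma adjusted p = 0.0160) and Tnfrsf4 (0.43, adjusted p = 0.0363) rose in that fit, and between the knockouts Junb fell (-0.39, adjusted p = 0.0448). In the same fit 0 of the 9 NF-kB subunits and feedback genes passed limma, where 2.57% of all tested genes passed in CD4-cre, 7.63% in Foxp3-cre, 0.968% between the knockouts and 5.37% for both knockouts, and Ier3 stood at -0.52 (SE 0.14, adjusted p = 0.0656).

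Of 12 other tested genes that restrain the pathway, 0 passed limma in any comparison, and at an unadjusted p under 0.05 1 was higher and 2 were lower in CD4-cre, where 7.38% and 6.7% of all tested genes were. In Foxp3-cre 1 was higher and 1 lower, against 10.5% and 10.8%, and between the knockouts 1 was lower, against 6.16%. Commd1, which promotes the turnover of RelA, stood at 0.43 in CD4-cre (adjusted p = 0.283) and 0.54 in Foxp3-cre (adjusted p = 0.0978), with a second set at 0.11 and 0.26, and at 0.26 and 0.37 without wild type replicate 2. Rnf11, a partner of A20, stood at 0.24 and 0.53 with SE 0.33, and its wild type replicate 2 read 5.99 against 7.40 and 7.39. Without that array Rnf11 stood at -0.23 and 0.06, and a second set stood at 0.03 and 0.05. Tnip1, another partner of A20, stood at -0.24 between the knockouts (adjusted p = 0.314). Without wild type replicate 2, Bcl3, an atypical I-kappa-B protein that acts in the nucleus, fell by 0.44 in Foxp3-cre (limma adjusted p = 0.0141), against -0.34 (adjusted p = 0.0888) with it. For the mean of both knockouts against wild type, 5 genes of the 4 lists passed, where 2.26% of all tested genes did. Traf1 fell by 0.44 (limma adjusted p = 0.0166), Prkcq by 0.34 (adjusted p = 0.0287), Tnfrsf9 by 0.49 (adjusted p = 0.00704) and Tnfrsf1a by 0.42 (adjusted p = 0.0181). Ebi3 rose by 0.46 (adjusted p = 0.0492). Among 9 fits that each left out 1 array, the Ebi3 call was lost in 8, Prkcq in 6 and Tnfrsf1a in 5. For Traf1 it was lost in 4 and for Tnfrsf9 in 0. Commd1 stood at 0.49 and Rnf11 at 0.39 in that comparison without passing (adjusted p = 0.101 and 0.458).

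**Figure D5:**
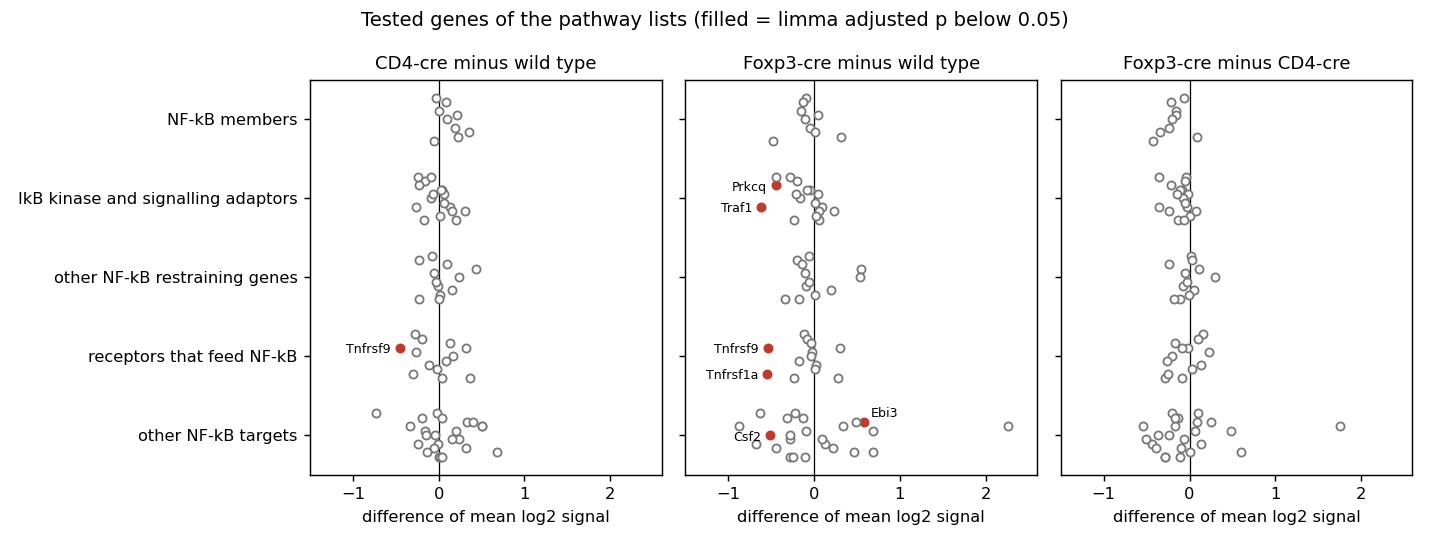
Difference of mean log2 signal for the tested genes of the NF-kB group and the 4 other pathway lists in 3 comparisons; each circle is a gene, and filled, named circles passed limma's adjusted p of 0.05. Tnfrsf9 is the filled circle in CD4-cre, Traf1, Prkcq, Tnfrsf9, Tnfrsf1a, Csf2 and Ebi3 are those in Foxp3-cre, and there is none between the knockouts.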

How the data were processed

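Total RNA of magnetically separated cells was labelled after amplification and hybridised to 1 Affymetrix array per sample, per the labels' protocols. The deposited values are log2 signals per probe set, made with RMA (background correction, normalization between arrays, summary of probes) per the submitters' processing notes, and its version is not stated there. RMA compresses small differences of dim sets and removes a change common to all genes. Array medians were 5.37 to 5.45, and 0 pairs of arrays were identical. The number of arrays limits the precision, with a median SE of 0.11.

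The 64 control sets were left out, and 20380 sets had 1 gene symbol, 691 several and 1555 none in the platform annotation. Each of 12393 genes was represented by its brightest set, and 7436 at or above the 40th percentile of gene means entered limma 3.58.1 (R 4.3.3). It was 1 fit over the 3 groups, with 4 contrasts, two-sided, Benjamini-Hochberg adjusted over all tested genes and called below 0.05. The fit was checked on simulated data that, unlike the arrays here, had equal spread in all groups and no outlying array. Adjusted p-values in the text come from limma. Because both knockouts share their controls, they were compared directly, by a contrast. Exact permutation of 3 against 3 arrays has a smallest p of 0.1 and was not used. The genes and lists were chosen with earlier results of these data known. Named genes are all members, Sirt1, Foxp3, up to 4 changed genes per list and contrast or else the 2 with the largest change, and the 3 nearest patterns to Nfkbia, Rel and Ier3. Beyond that rule, some marker genes are named, as are list genes that passed without wild type replicate 2, chosen after their values were seen. Deviations of same-numbered arrays from their group means correlated above 0.1 in all 3 pairs of wild type and Foxp3-cre (0.201 to 0.255), and in 2 of 3 pairs in each comparison with CD4-cre (7 of 9 in all, from -0.03 to 0.49). By the rule that every pair exceed 0.1, the numbers would pair wild type with Foxp3-cre and not the other groups, which comes from the data, not the labels. Differently numbered arrays of wild type and Foxp3-cre correlated at -0.27 to -0.03. Across all groups, differently numbered arrays reached 0.32 (CD4-cre 2 and Foxp3-cre 1), so passing 0.1 does not by itself establish a pairing. A search of protein sequences that was planned was not made.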

Additional observations from a re-analysis of the deposited data

Results flagged for a closer look

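Foxp3 differed between the knockouts, at -6.70 in Foxp3-cre minus CD4-cre, by the limma contrast of the 2 groups (adjusted p = 1.48e-07). No NF-kB gene differed between the knockouts by that test at an adjusted p of 0.05. Groups of 3 arrays were not tested for single outlying samples.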

How the results depend on the processing

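Array weights moved the counts most: 1298 genes changed in CD4-cre, 1539 in Foxp3-cre, 812 between the knockouts and 1604 for both knockouts, with 1 NF-kB gene (Ier3) in Foxp3-cre and 2 (Ier3 and Relb) between the knockouts. With only the 2 groups compared, 22, 16 and 55 genes changed in the first 3 comparisons, and the ordinary linear model gave 22 in CD4-cre, 55 in Foxp3-cre and 74 for both knockouts. The stricter filter gave 29 in CD4-cre. Between the knockouts, where 1 gene changed, repeated quantile normalization gave 5, median centring 2 and the replicate block 96. In Foxp3-cre against wild type, where same-numbered arrays deviated together, the block gave 354 genes against 250, and it changed no call of an NF-kB gene in any comparison. Leaving out single arrays gave 4 to 191 genes in CD4-cre, 71 to 567 in Foxp3-cre, 1 to 72 between the knockouts and 54 to 399 for both, and 0 to 1 NF-kB genes in Foxp3-cre and 0 in the other comparisons. The count lower on all Foxp3-cre than on all CD4-cre arrays was 7 to 8 of 9, and leaving out an array cannot lower it. Sirt1 turned negative in Foxp3-cre without wild type replicate 2 (-0.35, adjusted p = 0.0301) and with array weights (-0.35, adjusted p = 0.0380), and for both knockouts likewise (-0.32 and -0.29), while leaving out wild type replicate 1 gave 0.22 and 0.25. Of 703 recomputed changes of NF-kB genes, 30 changed sign without passing and 4 passed. The cause was not tested. A median SE of 0.11 limits what 3 arrays a group resolve.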
